A study of Homo sapiens with 3 samples.

Results

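The BCL2 family is described here in RH30 cells, an established line of alveolar rhabdomyosarcoma, a childhood tumour of muscle lineage. The members are BCL2, BCL2L1, MCL1, BAX, BAK1, BCL2L11, BBC3, PMAIP1, BID and BAD, and a probe set of the array was taken when the platform annotation gave it a single gene symbol and that symbol was one of these 10. By that rule 23 of 19064 single-gene probe sets and 9 of 11963 genes were members. BBC3 had no member probe set: the probe set that carries its symbol also names 2 microRNA genes, so no value is given for it. The study compared 3 conditions. Untreated RH30 cells had received no agent, another culture had been given a mutated anti-MYCN PNA at 10 µM, described as without activity, and the last had been given the anti-MYCN PNA at 10 µM, with RNA taken at 12 hours. A peptide nucleic acid (PNA) carries DNA bases on a peptide-like chain and can pair with a gene's DNA. Each condition has 1 array of 1 cell line, so values carry no replicate error and differences between arrays were not tested. The array called untreated by its title and treatment text has a source name that says mutated PNA. Any statement about one control taken singly rests on its title.

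Proteins of the BCL2 family decide at the outer mitochondrial membrane whether a stressed cell dies. BAX and BAK1 form the pores that release cytochrome c, the survival members BCL2, BCL2L1 (BCL-XL) and MCL1 hold them in check, and BH3-only proteins bind survival members or activate the pore formers. MYC-family factors are known to sensitise cells to this route of death, and in many tumours survival members offset it.

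The arrays differed as wholes in ways that accompany every value below. All 24 probe sets for poly-A spikes, bacterial transcripts added in this kind of assay before labelling, lay below both controls on the anti-MYCN PNA array, with a median ratio of 0.382 to mutated PNA and 0.410 to untreated, against 1.06 between the controls. The 3′ to 5′ signal ratio of ACTB, which rises with RNA decay, was 2.11 for untreated cells, 1.73 with mutated PNA and 1.99 with anti-MYCN PNA. The same ratio of GAPDH differed less and in another order, at 1.02, 1.02 and 1.09. MYCN, the target, read 3313, 2804 and 2202 in that order in its brightest probe set. All 8 muscle lineage markers passed the signal filter described below, MYOD1 and DES among them, and their summed signal was 31380, 32876 and 43525. ACTC1 alone gave 17091, 19864 and 27505 of it. The anti-MYCN PNA array was highest in 5 of the 8, and MYOG, FOXO1 and CHRNA1 lay between the controls. Of 12 markers of other cell types on the array, only KRT18 passed the filter. Their summed signal was 872, 563 and 808, of which KRT18 gave 658, 365 and 397. The part of these differences in the results for the family was not tested.

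Signals are MAS5 intensities, linear and without a unit, and values in threes follow the order untreated, mutated PNA, anti-MYCN PNA. Differences are on the log2 scale after signals under 23.4 were set to that floor, and a probe set passed the filter when its mean over the 3 arrays reached 117.1. Of the 23 member probe sets, 15 passed, covering 8 genes, and 13 of the 15 read over 117 on every array. The other 2, both of MCL1, read under it with anti-MYCN PNA. The 8 that did not pass were 3 of BCL2, 2 of BCL2L1, 2 of BCL2L11 and 1 of MCL1. BCL2L11 therefore has no probe set over the filter. The nearest miss was MCL1 probe set 214056_at, with a mean of 116.7. A probe set is called when it is at least 2-fold from a control, or from both in the same direction.

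**Figure D1:**
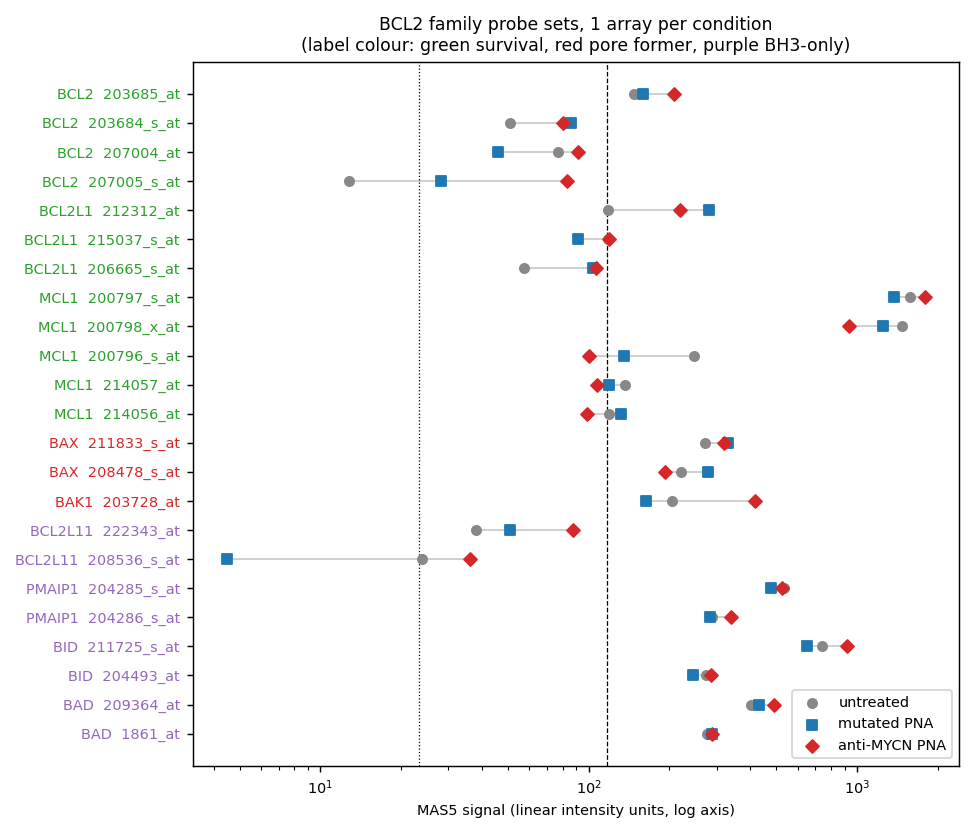
MAS5 signal (log axis) of all 23 member probe sets on the 3 arrays, 1 point per array, with a dashed line at the filter of 117 and a dotted line at the floor of 23.4. BAK1 stands out by its anti-MYCN PNA point at 416 against 205 and 164, and the MCL1 probe sets go in opposite directions.

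The pore formers BAX and BAK1 differed from each other in how they read on the anti-MYCN PNA array. BAK1, on chromosome 6, encodes a pore former that sits in the mitochondrial membrane in healthy cells. Its single probe set, 203728_at, read 205 in untreated cells, 164 with mutated PNA and 416 with anti-MYCN PNA. The anti-MYCN PNA value lay above both controls, by 2.03-fold over untreated and 2.54-fold over mutated PNA, which are log2 differences of 1.02 and 1.35. The controls differed by −0.33, and for 95% of the 990 probe sets of like signal they differed by at most 0.64. BAK1 was the only one of the 15 passing member probe sets called from both controls, and it lay higher. Over all 9899 passing probe sets 1.18% were called higher than both and 1.63% lower. Of those 9899, 105, BAK1 included, lay at least as far above the nearer control as BAK1 did. Of the 990 probe sets of like signal, 15, BAK1 included, did so. Over all passing probe sets the SD of the log2 difference was 0.30 between the controls and 0.52 between anti-MYCN PNA and mutated PNA. In RNA of whole cultures, more expressing cells and more RNA per cell cannot be told apart. The call against untreated lies at its threshold: under quantile normalization the difference was 0.96 and under median scaling 0.82, so the call was lost, while the difference to mutated PNA stayed at 1.29 and 1.18. Over the reported value and the 9 alternative settings that gave one, BAK1 ranged from 0.82 to 1.02 against untreated and from 1.13 to 1.35 against mutated PNA.

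BAX, on chromosome 19, encodes the pore former that moves from the cytosol to mitochondria and is a known target gene of p53. Its probe set 211833_s_at read 271 in untreated cells, 331 with mutated PNA and 318 with anti-MYCN PNA. The anti-MYCN PNA value lay between the controls. Its probe set 208478_s_at read 221, 278 and 193, the lowest value being that of the anti-MYCN PNA array, with log2 differences of −0.53 to mutated PNA and −0.20 to untreated. Neither probe set was called, and both lay within the range of the controls for like signal, 0.60 and 0.64. The difference of BAK1 exceeded those of the BAX probe sets by 1.40 and 1.88 against mutated PNA and by 0.79 and 1.22 against untreated. Between the controls the same gaps were −0.61 and −0.66, so BAK1 was lower and both BAX probe sets higher in mutated PNA than in untreated cells.

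The promoters of the pore formers are shown because MYC-family factors bind the E-box hexamer CACGTG, which reads the same on both strands, and because BAK1 was called and BAX was not. The 250 bases before the RefSeq start site (GRCh38.p14) are given 5′ to 3′ in the direction of the gene, with the hexamer in capitals. BAX lies on the plus strand, window chr19:48954625-48954874, and BAK1 on the minus strand, window chr6:33580277-33580526.
BAX: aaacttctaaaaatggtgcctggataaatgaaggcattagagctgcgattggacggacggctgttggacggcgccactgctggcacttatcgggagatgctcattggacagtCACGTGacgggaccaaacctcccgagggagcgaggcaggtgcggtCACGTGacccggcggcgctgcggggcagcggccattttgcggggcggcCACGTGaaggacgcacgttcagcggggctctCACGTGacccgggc
BAK1: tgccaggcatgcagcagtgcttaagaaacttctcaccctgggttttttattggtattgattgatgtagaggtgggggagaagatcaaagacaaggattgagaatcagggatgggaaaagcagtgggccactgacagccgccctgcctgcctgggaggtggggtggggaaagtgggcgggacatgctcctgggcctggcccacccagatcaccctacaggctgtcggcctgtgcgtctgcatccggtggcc
The BAX window held 4 hexamers, starting 138, 93, 45 and 14 bases before the start site, and the BAK1 window held none. Among 35116 such windows of RefSeq genes 6.34% held at least 1 hexamer, and 5 windows held at least 4. The GC content was 62.8% in the BAX window and 58.0% in that of BAK1. Among 4051 windows within 2 percentage points of the GC content of BAX, 8.69% held at least 1 hexamer and 2 held at least 4. Among the 15 windows of the 9 family genes in the table, which lacks an entry for MCL1, hexamers were found in BAX, in BBC3 and at 1 site shared by 2 of the 5 windows of BID. By gene this is 3 of 9. Of all 27305 genes with a window, 7.73% held at least 1 hexamer in any window. A match is a description of the sequence. The arrays hold no measure of binding.

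**Figure D2:**
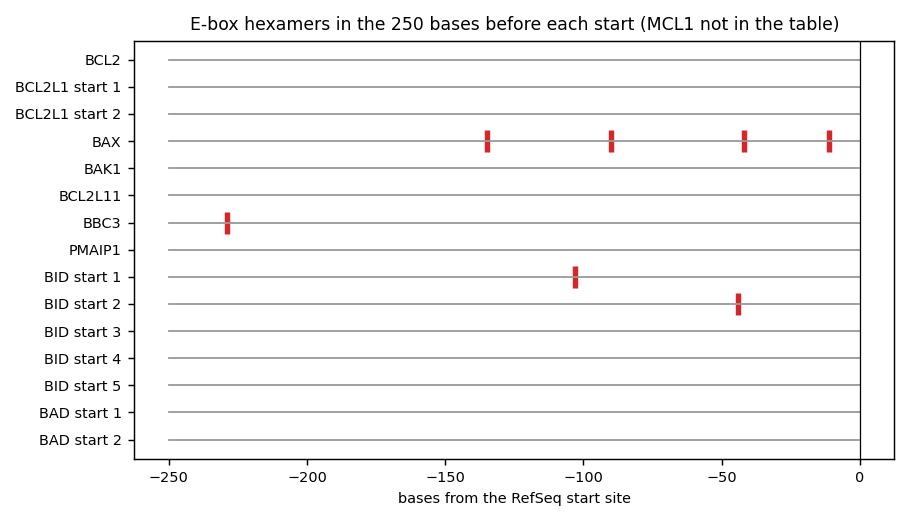
Positions of the CACGTG hexamer (red marks) in the 250 bases before each RefSeq start site of the family genes, in bases from the start. BAX holds 4, BBC3 holds 1 and BID holds 1 site that falls in 2 of its overlapping windows, and the other windows hold none.

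Among survival members, MCL1 read lower on the anti-MYCN PNA array in 4 of its 5 probe sets and higher in the brightest. MCL1, on chromosome 1, encodes a short-lived survival protein that binds BAK1 and BH3-only proteins. Probe set 200797_s_at read 1577 in untreated cells, 1371 with mutated PNA and 1785 with anti-MYCN PNA. This is the one MCL1 probe set with its highest value in anti-MYCN PNA cells, and its difference to untreated, 0.18, became −0.02 under median scaling. Probe set 200798_x_at read 1466, 1246 and 931, with log2 differences of −0.65 to untreated and −0.42 to mutated PNA. Both exceed the 0.40 within which the controls of 95% of like-signal probe sets lay. Of the 990 probe sets of like signal, 170, 200798_x_at included, lay at least as far below the nearer control. Its suffix marks probes that also match other transcripts, so it is uncertain for MCL1. Probe set 200796_s_at read 246, 135 and 100. It was 2.45-fold lower in anti-MYCN PNA than in untreated cells and lower than mutated PNA by a log2 difference of −0.43, and the controls themselves differed by −0.87. Probe sets 214057_at and 214056_at read 136, 119 and 107, and 119, 132 and 98.7, so both were lowest in anti-MYCN PNA cells by less than 2-fold.

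The range of the log2 difference to untreated over the 4 passing MCL1 probe sets was 1.47. Among the 151 genes with 4 passing probe sets the median of that range was 0.67, and 4 genes, MCL1 included, reached 1.47. Against mutated PNA the range was 0.81, near the median of 0.75. The direction read for MCL1 thus depends on the probe set.

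BCL2L1 set the untreated array apart from both PNA arrays. BCL2L1, on chromosome 20, encodes BCL-XL and, by alternative splicing, the death-promoting BCL-XS. Probe set 212312_at read 118 in untreated cells, 281 with mutated PNA and 219 with anti-MYCN PNA. Both PNA arrays were higher than untreated, by 2.38-fold for mutated PNA and 1.86-fold for anti-MYCN PNA, and anti-MYCN PNA was below mutated PNA by a log2 difference of −0.36. It was the only passing member probe set called between the controls, where 0.364% of all passing probe sets were called higher and 0.465% lower. At 1.5-fold the counts between the controls were 1 higher, the same probe set, and 1 lower, MCL1 200796_s_at, against 2.65% and 2.51%. Of the 990 probe sets of like signal, 8, BCL2L1 included, had controls at least this far apart. Probe set 206665_s_at, which did not pass, read 57.6, 104 and 106, also higher on both PNA arrays. Probe set 215037_s_at read 118, 91.3 and 119, with no such difference. The direction rests on the title of the untreated array, and both comparisons with untreated share that array.

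BCL2, on chromosome 18, encodes the founding survival protein of the family. Probe set 203685_at, the only one of its 4 to pass, read 148 in untreated cells, 159 with mutated PNA and 208 with anti-MYCN PNA. The anti-MYCN PNA value was the highest, by 0.49 over untreated and 0.38 over mutated PNA, within the 0.75 of the controls for like signal. The dim probe sets read 51.0, 85.8 and 80.0 for 203684_s_at, 76.7, 46.1 and 91.4 for 207004_at, and 12.8, 28.1 and 82.9 for 207005_s_at. The last was 2.95-fold over mutated PNA and 3.54-fold over untreated, the untreated value being set to the floor. Among the 4996 probe sets with a mean between floor and filter, 15.2% lay 2-fold or more above both controls, so a difference of this size at this signal is frequent on these arrays. The controls of such dim probe sets differed by up to 1.39 in 95% of them.

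The passing BH3-only probe sets stayed within 0.49 of both controls on the log2 scale. PMAIP1, on chromosome 18, encodes NOXA, which binds MCL1 and is a known target of p53. Its probe sets read 536 in untreated cells, 479 with mutated PNA and 524 with anti-MYCN PNA for 204285_s_at, and 289, 284 and 340 for 204286_s_at. The first lay between the controls and the second was above both, by 0.24 over the nearer. BID, on chromosome 22, encodes the BH3-only protein that caspase-8 cleaves and that links death receptors to mitochondria. Its probe set 211725_s_at read 738, 651 and 917, and 204493_at read 274, 244 and 285. Both were highest in anti-MYCN PNA cells, by 0.31 and 0.06 over untreated, the nearer control. Against mutated PNA, 211725_s_at was 0.49 higher, which exceeds the 0.44 of the controls for like signal. Of the 990 probe sets of like signal, 192, 211725_s_at included, lay at least as far above the nearer control. BAD, on chromosome 11, encodes the BH3-only protein that survival kinases hold inactive by phosphorylation. Its probe sets read 403, 432 and 492 for 209364_at, and 277, 287 and 288 for 1861_at. No BH3-only probe set over the filter was as far as 1.5-fold from either control. Over all passing probe sets, 13.0% were that far above and 11.4% below mutated PNA, and 12.7% above and 11.6% below untreated.

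BCL2L11, on chromosome 2, encodes BIM, which binds all survival members. Its probe sets were dim, at 38.1 in untreated cells, 51.1 with mutated PNA and 87.0 with anti-MYCN PNA for 222343_at, and 23.9, 4.5 and 36.1 for 208536_s_at. Both were highest on the anti-MYCN PNA array. The mean of 222343_at lies between floor and filter, where 52.0% of all probe sets were highest on that array, and the mean of 208536_s_at, 21.5, lies under the floor. Probe set 222343_at was 2.28-fold over untreated and 1.70-fold over mutated PNA, and a level of BCL2L11 is not established at this signal.

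**Figure D3:**
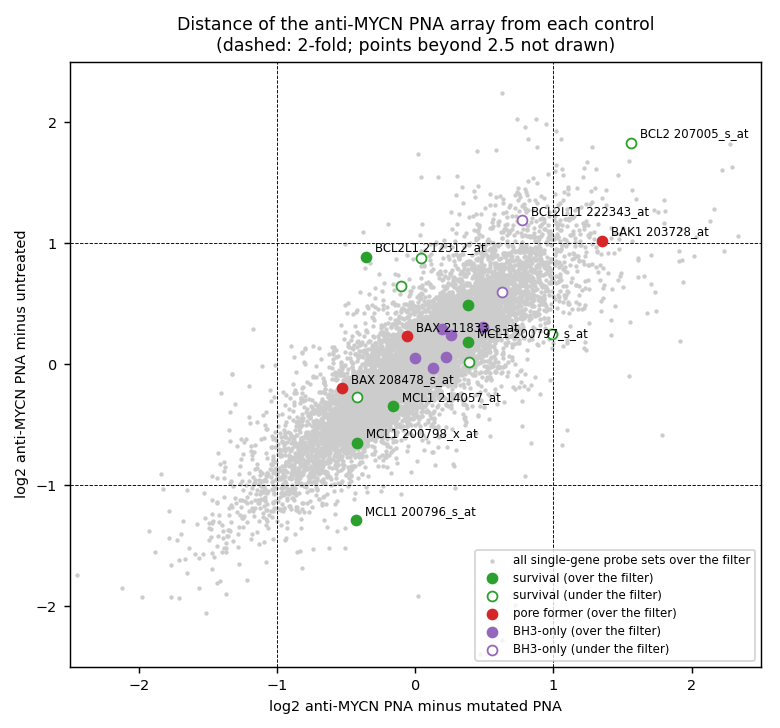
Log2 difference of the anti-MYCN PNA array to mutated PNA (x axis) and to untreated (y axis) for every passing single-gene probe set (grey) and for member probe sets by class, with filled symbols over and open symbols under the filter. BAK1 at 1.35 and 1.02 is the one filled member beyond both 2-fold lines, and BCL2L1 and MCL1 probe set 200796_s_at lie off the diagonal. The axes share the anti-MYCN PNA array, so the grey points lie along the diagonal for that reason too.

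Set side by side as classes, most passing survival probe sets read lower with anti-MYCN PNA than with mutated PNA. Passing BH3-only probe sets read the same or higher. Without the filter, the median log2 difference of the 12 survival probe sets to mutated PNA was −0.03. Under median scaling, BAD 1861_at and PMAIP1 204285_s_at read lower than mutated PNA, by −0.17 and −0.04. The median log2 difference to mutated PNA over passing probe sets was −0.26 for 6 of survival members, −0.06 for 3 of pore formers and 0.21 for 6 of BH3-only members, and 0.04 over all passing probe sets. To untreated the medians were −0.09, 0.23 and 0.15, and 0.04 over all. Of the 6 survival probe sets 4 belong to MCL1, and with the brightest probe set per gene the survival medians were 0.38 and 0.49. The sign of the survival class therefore depends on how probe sets are combined. With a median over the brightest probe sets of BAX and BAK1, the pore formers stood at 0.65 and 0.62, which is the mean of 1 called and 1 uncalled gene. The BH3-only medians by brightest probe set were 0.19 and 0.29 over PMAIP1, BID and BAD, the 3 genes that passed. Over all genes that passed, the medians by brightest probe set were 0.06 and 0.07.

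The anti-MYCN PNA array gave the highest signal in 8 of 15 passing member probe sets and the lowest in 4, against 45.9% and 39.3% of all passing probe sets. By class it was highest in 5 of 6 BH3-only, 1 of 3 pore former and 2 of 6 survival probe sets. The BH3-only count was 3 of 6 under quantile normalization, where 43.2% of all passing probe sets were highest with anti-MYCN PNA, and 3 of 6 under median scaling, where 30.7% were. Against mutated PNA alone, 1 of 15 was called higher and none lower, with a background of 2.75% and 2.72%. Against untreated alone, 1 was called higher and 1 lower, with a background of 3.02% and 2.78%. The probe set called lower was MCL1 200796_s_at, which passed the filter through its control values. At 1.5-fold from both controls, the count was again 1 higher and 0 lower, against 8.09% and 8.04%, and 1 of 15 is near that background. Each of the counts of 1 rests on a single probe set.

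Genes that act around the family were read from lists of related genes, by the brightest probe set per gene. Over all 6745 genes, 1.16% were called 2-fold higher than both controls and 1.26% lower, and 8.30% and 7.34% at 1.5-fold. Of 10 other family genes on the array 4 passed, and none was 1.5-fold from both controls. BNIP3L, a mitophagy receptor, was the furthest, at 1870 in untreated cells, 2091 with mutated PNA and 1324 with anti-MYCN PNA. Downstream of the pore, 11 mitochondrial and caspase genes passed, with median log2 differences of −0.02 to mutated PNA and −0.06 to untreated. Of these 11, 1 was 1.5-fold lower than both: ENDOG, a mitochondrial nuclease, at 420, 410 and 259. CYCS, which encodes cytochrome c itself, read 13725, 13351 and 13184, and APAF1, which cytochrome c activates, read 307, 437 and 245.

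Of 3 passing caspase inhibitors, 2 were 1.5-fold lower than both controls and 1 of these, XIAP, 2-fold lower. XIAP, which binds caspases directly, read 145, 167 and 67.5. It passed the filter through its control values, and its anti-MYCN PNA value lies in the dim range under the filter. The controls of 95% of probe sets with a mean signal like that of XIAP differed by up to 0.94. In the dim range they differed by up to 1.39. BIRC2, an inhibitor that acts in TNF receptor signalling, read 1347, 1331 and 691. BIRC5, survivin, read 4235, 5015 and 4380, between the controls. In the death receptor arm, which BID joins to mitochondria, 6 genes passed and 1 was 1.5-fold higher than both: the receptor TNFRSF1A at 517, 443 and 975. FADD, the adaptor of death receptors, read 634, 509 and 413, and CASP8, the caspase that cleaves BID, read 131, 141 and 118.

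Among 8 passing regulators of BH3-only and pore genes, 3 were 1.5-fold higher than both controls, 1 of them (E2F1) 2-fold, and none was lower. DDIT3, the stress factor CHOP, read 1672, 1159 and 3226, ATF4, its activator, read 2964, 3187 and 5491, and E2F1, a cell cycle factor that also activates BH3-only genes, read 464, 496 and 1012. The 2-fold call of E2F1 rests on this brightest probe set: its other passing one had log2 differences of 0.57 to mutated PNA and 0.58 to untreated. PMAIP1 and BCL2L11, which are known targets of these factors, are described above: no passing PMAIP1 probe set was called, and BCL2L11 did not pass. Of 12 passing binding partners and turnover factors, TPT1, which encodes a binding partner of MCL1, was 1.5-fold higher than both at 27239, 26693 and 42169. Its probe set has the suffix _x_at, and none of its other 4 passing probe sets was 1.5-fold from both. FBXW7, part of a ubiquitin ligase for MCL1, read 154, 164 and 235, less than 1.5-fold over mutated PNA. Of the 12 genes, the anti-MYCN PNA array was highest in 7 and lowest in 4. Over all passing probe sets it was highest in 45.9% and lowest in 39.3%.

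**Figure D4:**
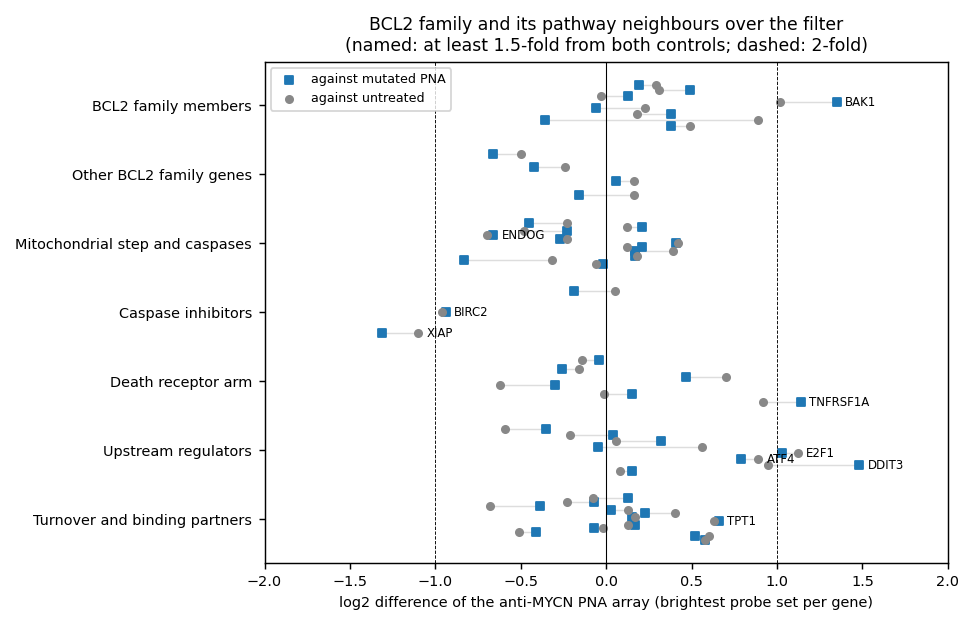
Log2 difference of the anti-MYCN PNA array to mutated PNA (blue squares) and untreated (grey circles) for the brightest probe set of each passing family member and of genes in related lists, 1 pair per gene. BAK1 is the named member, and XIAP, BIRC2 and ENDOG lie on the lower side and TNFRSF1A, DDIT3, E2F1, ATF4 and TPT1 on the higher side of both controls.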

How the data were processed

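Total RNA of 3 RH30 cultures was labelled with biotin and hybridised to Affymetrix arrays, 1 per condition, per the labels' protocols. The authors deposited linear signal intensity per probe set, made with MAS5 and GCOS per the submitters' processing notes. The 2% trimmed mean of the deposited intensities was 499.6 to 499.8 on the 3 arrays, so each array had been brought to one level by 1 factor. Scanner files and detection calls were not used here. The number of arrays limits the precision.

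Of 22277 probe sets, 62 are controls. Of the rest, 19064 name 1 gene in GEO's platform annotation, 1043 several and 2108 none. Symbols were updated through Entrez identifiers in the RefSeq table of GRCh38.p14, in which 19052 of the 19064 matched, and chromosomes come from it. Arrays were scaled to one trimmed mean, a floor was set at the pooled 25th percentile (23.4), and log2 taken. The filter was a mean of at least the pooled 50th percentile (117.1), with 9899 single-gene probe sets and 6745 genes passing. Like signal means the same of 10 classes of mean signal, or the whole set under the filter. Named genes are the members and, from the related lists, genes at least 1.5-fold from both controls. BNIP3L, CYCS, APAF1, BIRC5, FADD, CASP8 and FBXW7 were chosen after their values were seen. The members and lists were chosen with earlier results of these data known. With 1 array per condition no difference between groups was tested. The procedure that makes the 2-fold calls was tested on simulated data with known changes. These were all larger than 2-fold, with the spread between the controls, so the test cannot speak for a change near 2-fold. Alternatives changed scaling, floor, filter, fold and the choice of probe sets. Promoter sequences are RefSeq's, for 9 of the 10 members. Python 3.11.15, numpy 2.4.6, pandas 2.3.3 and matplotlib 3.10.9 were used.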

Additional observations from a re-analysis of the deposited data

How the results depend on the processing

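No paired analysis was possible because each condition has 1 array and the labels carry no replicate numbers, and no array could be left out for the same reason. Single-probe-set differences of the passing members kept within 0.30 (the SD of the control difference) of their reported value in 368 of 369 recomputed values. The exception was MCL1 200796_s_at against untreated, −0.98 with a pseudocount of 50, and no called value changed sign. Only quantile normalization, median scaling and the pseudocount could move such a value. Under the other settings it was the reported value by construction, so most of the 369 could only agree. Median scaling shifted the median of all passing probe sets to −0.13 against mutated PNA and −0.16 against untreated, from 0.04 each.

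The count of member probe sets called higher than both controls, 1 as reported, was 0 under quantile normalization, median scaling, the pseudocount, a filter at the 75th percentile (which leaves 3 member probe sets) and a 3-fold threshold, and 2 without a filter. Against untreated, the count called higher was 0 under the same 5 settings, 3 without a filter and 2 at 1.5-fold. The count called lower against untreated, 1 as reported, was 0 with the pseudocount, the 75th percentile filter, the 3-fold threshold, the brightest or the median probe set per gene, or without probe sets of suffix _x_at or _s_at, and 2 at 1.5-fold. Against mutated PNA the count called higher was 0 with the 75th percentile filter and at 3-fold, and 2 without a filter. Between the controls the count called higher was 0 with the pseudocount, the 75th percentile filter and at 3-fold, and the count called lower was 1 at 1.5-fold.

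Class medians depended on the choice of probe sets. The survival median against untreated, −0.09 as reported, was −0.47 under median scaling, 0.22 without a filter, and 0.49 with the brightest probe set, with their median per gene, or without suffixed probe sets. Against mutated PNA it was 0.38 with the brightest, and between the controls 0.11 under those 3 choices. The pore former median against mutated PNA, −0.06 as reported, was 0.65 with the brightest, 0.53 with their median per gene and 1.35 without the 2 suffixes, which leaves BAK1 alone. Against untreated it was 0.62 with the brightest and 1.02 without those suffixes, and between the controls −0.02 and −0.33. BH3-only medians moved by less than 0.30 under every setting, to −0.05 against untreated under median scaling. These settings change which probe sets enter a median, how they are combined or how arrays are scaled. No other cause of the shifts was tested. Signals near the floor limit BCL2L11 and the dim probe sets of BCL2.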
